A study of Mus musculus with 12 samples.

Results

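The ADAMTS genes encode secreted zinc proteases of the extracellular matrix, and 10 of them were followed here in the apical, root-forming piece of the mouse first lower molar at postnatal day 4. The members were Adamts1, Adamts2, Adamts3, Adamts4, Adamts5, Adamts9, Adamts10, Adamts14, Adamts18 and Adamts20. All 10 were looked up by gene symbol and found in the expression table of 25899 genes, which holds 19 ADAMTS genes in all. RNA was sequenced in 6 libraries from Nfic-/- mice and in 6 from Nfic+/- littermate controls, all of strain C57BL/6. The series text counts 6 pairs of littermates, and no label ties a library number to a litter. Nfic encodes a nuclear factor I transcription factor that molar roots need, and the series places it in a cascade with Hedgehog signalling. The controls were not wild type, since they carried 1 intact Nfic copy, and the labels used here do not describe the null allele. Each library was a whole cut piece of tissue, with enamel epithelium, odontoblasts, pulp, follicle, vessels and blood cells together. A lower level in such bulk tissue can come from fewer cells of a type or from less RNA per cell, and these cannot be told apart.

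ADAMTS proteases are made as inactive precursors that furin-like convertases trim, and thrombospondin-type repeats anchor the active enzyme in the matrix. The family divides by substrate. Adamts2, Adamts3 and Adamts14 encode procollagen N-proteinases, which cut the amino-terminal propeptide from fibrillar procollagens before fibrils form. Adamts1, Adamts4, Adamts5, Adamts9 and Adamts20 encode enzymes that cleave large hyaluronan-binding proteoglycans such as versican and aggrecan. Adamts10 encodes a protein that binds fibrillin microfibrils, and Adamts18 is a less well charted member. A tooth germ lays down a collagen-rich dentin and follicle matrix beside a soft proteoglycan-rich pulp, so substrates of both kinds are present.

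The catalytic site follows this division only in part at the DNA level. The coding sequence of all 10 members held 1 stretch of 36 bases that spells the zinc-binding site, and 7 are printed to show the procollagen enzymes beside the proteoglycan enzymes. The sequences are read from the GENCODE M21 transcripts (GRCm38), 5′ to 3′ on the coding strand, and capitals mark the codons of the histidines that hold the zinc ion.
Adamts2: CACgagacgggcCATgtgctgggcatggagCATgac
Adamts14: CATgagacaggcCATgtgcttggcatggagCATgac
Adamts3: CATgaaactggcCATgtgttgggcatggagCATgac
Adamts1: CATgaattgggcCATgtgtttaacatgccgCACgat
Adamts9: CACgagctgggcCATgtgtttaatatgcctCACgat
Adamts4: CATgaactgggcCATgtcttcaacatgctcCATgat
Adamts5: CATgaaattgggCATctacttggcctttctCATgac
Adamts2 and Adamts14 shared 33 of 36 bases, and Adamts3 shared 32 with each of them. Adamts1 shared 31 bases with Adamts9 and 30 with Adamts4. Adamts5 fell in neither set: it shared 23 to 25 bases with the procollagen enzymes and 20 to 22 with Adamts1, Adamts4, Adamts9 and Adamts20. Adamts20, not printed, shared 28 bases with Adamts9, 26 with Adamts1 and 23 with Adamts4.

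The depth behind the libraries was 70.2 to 96.4 M reads, and 11014 to 12518 genes reached 1 RPKM (reads per kilobase of gene and per M reads). At that depth 1 read in a gene of 1 kb is worth about 0.0104 to 0.0142 RPKM. Nfic itself (chromosome 10, 81396186 to 81455635, GRCm38, minus strand) was still detected in the null libraries, where it lay at 7.90, 11.5 and 16.5 RPKM (lowest, median, highest), against 11.3, 15.9 and 24.5 RPKM in the heterozygous libraries. The groups overlapped, and limma over all tested genes gave a difference of -0.52 in log2(RPKM + 1) with an adjusted p of 0.934. Markers of the labelled tissue were present, as all 10 dental epithelium markers and all 6 odontoblast markers passed 1 RPKM on average. Of 5 intestinal markers 3 passed it too, so this mean does not speak to the purity of the tissue. Several libraries stood apart. Libraries 8 and 9 of both genotypes held intestinal transcripts, with 72.2 to 88.3 RPKM summed over 5 markers, against at most 0.0789 RPKM in any other library. Null library 9 also held 38.7 RPKM of skeletal muscle transcripts, against 2.79 to 7.45 RPKM in the others. Null library 6 had the lowest mesenchyme and endothelial marker sums of all 12.

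The 10 members spanned a wide range of levels, led by a procollagen enzyme. Averaged over the 12 libraries, Adamts2 had 11.01 RPKM, Adamts9 7.08, Adamts10 4.45, Adamts1 3.33, Adamts3 3.13, Adamts14 3.04, Adamts5 1.80, Adamts4 1.44, Adamts18 0.376 and Adamts20 0.226 RPKM. RPKM is per length, so these levels can be set beside each other. Adamts2 exceeded Adamts9 in 12 of 12 libraries, Adamts14 exceeded Adamts5 in 12 of 12, and Adamts4 exceeded Adamts18 in 12 of 12. The middle of the order was not resolved, as Adamts1 exceeded Adamts3 in 7 of 12 libraries and Adamts3 exceeded Adamts14 in 7 of 12. Among the 12094 genes whose mean reached 1 RPKM, Adamts2 ranked 3557th by level and Adamts4 ranked 11122nd, so most of the family was expressed at a modest level. Adamts2 made up 29.7% ± 3.35 of the summed RPKM of the 10 genes in null libraries and 32.1% ± 2.44 in heterozygous libraries (SD, n = 6 each), and Adamts9 made up 21.6% ± 4.50 and 19.1% ± 3.10.

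**Figure D1:**
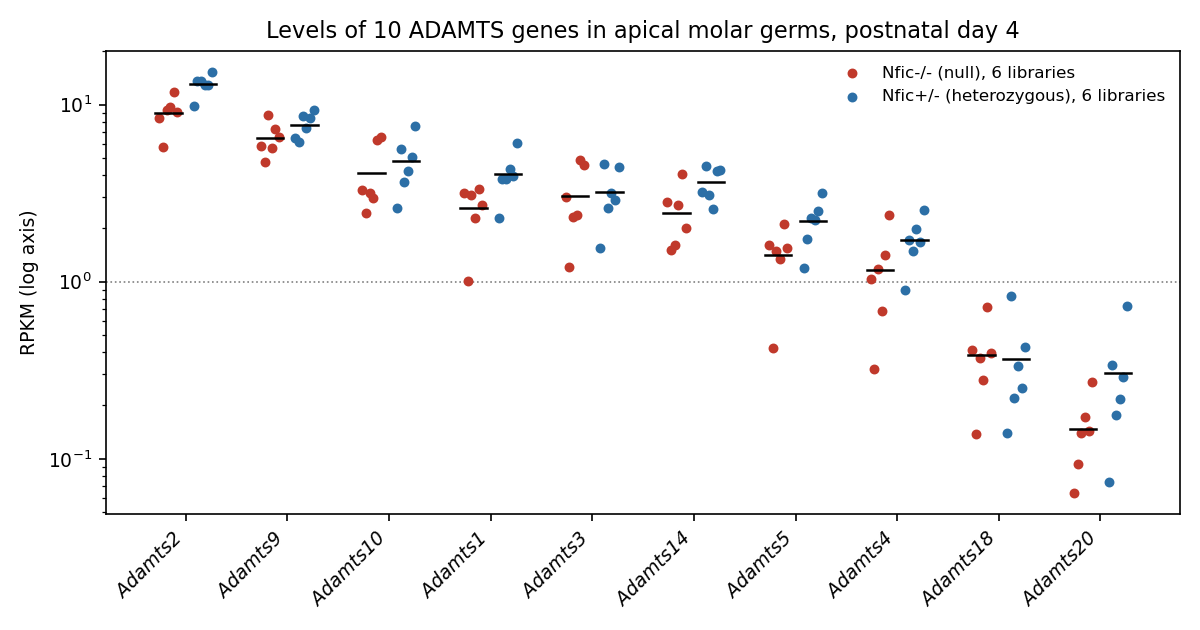
RPKM of the 10 ADAMTS genes in each library on a log axis, ordered by mean level, with Nfic-/- points left of Nfic+/- points and a bar at each group mean; the dotted line marks 1 RPKM. Adamts2 is the highest member in every library, Adamts18 and Adamts20 lie below 1 RPKM in all libraries, and the groups overlap for every gene.

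The main comparison asked whether the family differed between Nfic-/- and Nfic+/- molars. The summed RPKM of the 10 genes lay at 17.6, 30.5 and 41.9 in null libraries (lowest, median, highest), against 28.3, 40.8 and 53.8 in heterozygous libraries. Of the 10 members, 8 reached a mean of 1 RPKM and entered the limma test across 12094 genes, and Adamts18 and Adamts20 did not. No member passed an adjusted p of 0.05. The share of all tested genes that passed was 0%, with a smallest adjusted p of 0.934, and 646 genes (5.34%) had an unadjusted p under 0.05. All 8 tested members had a difference below 0, against a background of 51.1% of tested genes. The median difference of the 8 was -0.39 in log2(RPKM + 1), beside -0.0028 over all tested genes. An unadjusted p under 0.05 in the lower direction was found for Adamts2, Adamts14, Adamts1 and Adamts5, that is 4 of 8 members, beside 2.72% of tested genes. With the replicate number as a block it was found for 6 of 8, beside 5.03% of tested genes. The members were chosen with earlier results of these data known, and several varied together over the libraries. These counts therefore describe the list and do not test it. Without null library 6 the median of the 8 was -0.25 and 7 of 8 lay below 0.

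**Figure D2:**
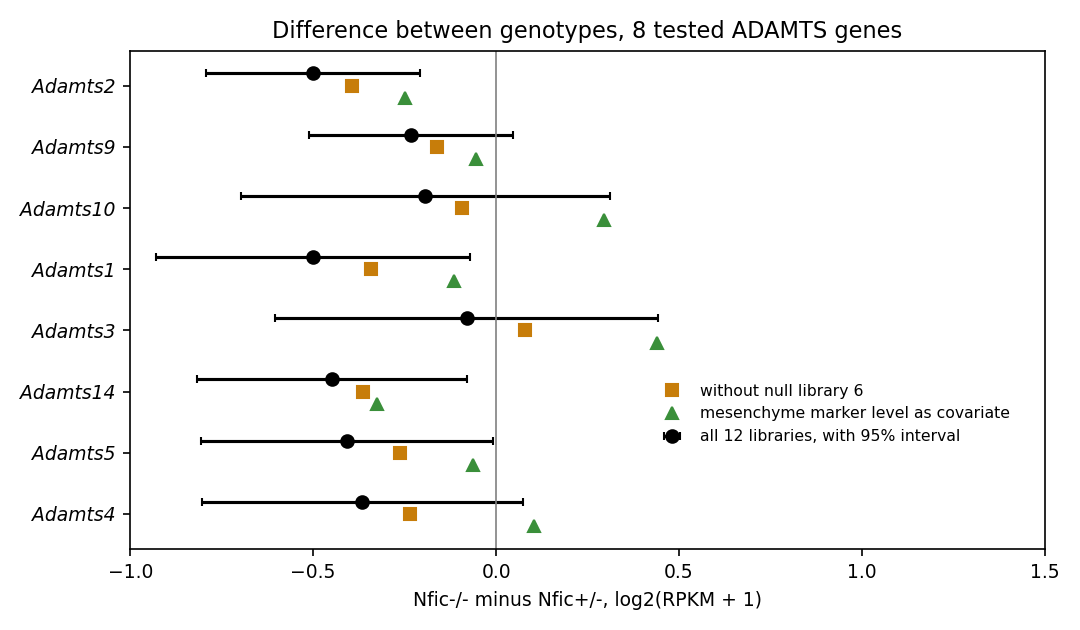
Difference between genotypes (Nfic-/- minus Nfic+/-, in log2(RPKM + 1)) for the 8 tested members, ordered by level. Black circles are the fit over all 12 libraries with its 95% interval, orange squares leave out null library 6 and green triangles hold the level of 9 mesenchyme markers constant; the intervals of Adamts2, Adamts1, Adamts14 and Adamts5 lie below 0 before adjustment, and the squares and triangles lie nearer to 0 or above it.

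Among the procollagen N-proteinases, Adamts2 had the smallest p of the family and Adamts3 the smallest difference. Adamts2 (chromosome 11, 50602084 to 50807573, plus strand), the main enzyme for type I procollagen, lay at 5.78, 9.19 and 11.8 RPKM in null libraries (lowest, median, highest), against 9.85, 13.2 and 15.3 RPKM in heterozygous libraries. Null libraries were low and heterozygous ones high with a single crossing, since 5 of 6 null libraries stood below every heterozygous library and null library 9 exceeded heterozygous library 5. The difference was -0.50 (95% interval -0.79 to -0.21), or 70.7% of the heterozygous level of RPKM + 1, with an adjusted p of 0.934 by limma. It was -0.61 among libraries 5 to 7, -0.39 among those numbered 8 to 10, and -0.63 without the libraries numbered 8 and 9. The sets 5 to 7 and 8 to 10 were split by library number and hold 3 libraries of each genotype. Sample numbers repeat in the column names, but no label says which libraries were handled together.

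Adamts14 (chromosome 10, 61197112 to 61273438, minus strand), which encodes a closely related procollagen enzyme, lay at 1.502, 2.37 and 4.07 RPKM in null libraries, against 2.58, 3.70 and 4.50 RPKM in heterozygous libraries. The groups overlapped, with 3 null libraries below every heterozygous one. Its difference was -0.45 (95% interval -0.82 to -0.08; limma adjusted p = 0.934), at -0.64 among libraries 5 to 7 and -0.26 among those numbered 8 to 10. Without the libraries numbered 8 and 9 it was -0.68. Adamts3 (chromosome 5, 89677087 to 89883334, minus strand), whose enzyme also activates the lymphatic growth factor VEGF-C, lay at 1.21, 2.69 and 4.89 RPKM in null libraries, against 1.55, 3.03 and 4.62 RPKM in heterozygous libraries. The groups covered nearly the same range. The difference was -0.08 (95% interval -0.60 to 0.44; limma adjusted p of 0.99997), and it was 0.08 without null library 6, 0.01 without heterozygous library 6 and 0.003 without heterozygous library 10, so its direction was not settled. The ratio of Adamts2 to Adamts3 RPKM ran from 2.004 to 4.76 in null libraries and from 2.95 to 6.35 in heterozygous libraries, which overlap.

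Of the proteoglycan-cleaving enzymes, Adamts1 and Adamts5 lie next to each other on chromosome 16 and had much the same profile over the libraries. Adamts1 (85793827 to 85803113, minus strand), whose enzyme cleaves versican and aggrecan, lay at 1.013, 2.89 and 3.32 RPKM in null libraries, against 2.30, 3.89 and 6.10 RPKM in heterozygous libraries. Adamts5 (85856173 to 85901828, minus strand), the main aggrecan-degrading enzyme of mouse cartilage, lay at 0.423, 1.52 and 2.10 RPKM in null libraries, against 1.19, 2.26 and 3.17 RPKM in heterozygous libraries. In both genes null library 6 was far below the other null libraries and heterozygous library 5 was the lowest of its group. Centred on their means, the 2 genes differed by 0.105 log2 on average over the 12 libraries, the closest of 45 pairs of members, whose median was 0.263. The ratio of Adamts5 to Adamts1 RPKM was 0.417 to 0.634 in null and 0.456 to 0.634 in heterozygous libraries. The genotype difference was -0.50 for Adamts1 (95% interval -0.93 to -0.07) and -0.41 for Adamts5 (95% interval -0.81 to -0.01), each with a limma adjusted p of 0.934. Without null library 6 these were -0.34 and -0.26.

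Adamts9 (chromosome 6, 92772699 to 92943492, minus strand), a versican-cleaving enzyme gene and the second highest member, lay at 4.73, 6.19 and 8.70 RPKM in null libraries, against 6.17, 7.89 and 9.27 RPKM in heterozygous libraries. The difference was -0.23 (95% interval -0.51 to 0.05; limma adjusted p = 0.973). Of its exonic bases 1381 are shared with A730049H05Rik and 424 with Gm15737 on the opposite strand, and since strand-specific counting is not stated, reads of these bases cannot be assigned to one strand. Both partners were low, at a mean of 0.727 and 1.008 RPKM. Adamts4 (chromosome 1, 171250421 to 171260637, plus strand), known as an aggrecanase, lay at 0.320, 1.10 and 2.36 RPKM in null libraries, against 0.893, 1.71 and 2.55 RPKM in heterozygous libraries. The difference was -0.37 (95% interval -0.80 to 0.07; limma adjusted p = 0.973), and it was -0.24 without null library 6.

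Adamts20 (chromosome 15, 94270163 to 94465418, minus strand), whose loss in the belted mouse impairs the spread of pigment cells, was the lowest member. It lay at 0.0639, 0.142 and 0.270 RPKM in null libraries, against 0.0738, 0.253 and 0.728 RPKM in heterozygous libraries. These values stood on about 49 to 627 reads per library, and the highest came from heterozygous library 10. In a fit over the 16051 genes that averaged at least 0.1 RPKM its difference was -0.17 (limma adjusted p = 0.981). Without heterozygous library 10 the difference was -0.09. Adding 1 RPKM flattens differences at so low a level, and in log2(RPKM + 0.1) the difference over all 12 libraries was -0.59. Adamts18 (chromosome 8, 113697126 to 113848738, minus strand), which mouse eye and lung development need, lay at 0.139, 0.382 and 0.720 RPKM in null libraries, against 0.139, 0.294 and 0.825 RPKM in heterozygous libraries. The ranges coincided, and the difference was 0.03 in the same wider fit (limma adjusted p of 0.99997). Adamts10 (chromosome 17, 33524204 to 33553782, plus strand), a gene of Weill-Marchesani syndrome in people, lay at 2.44, 3.24 and 6.58 RPKM in null libraries, against 2.60, 4.66 and 7.55 RPKM in heterozygous libraries. Its difference was -0.19 (95% interval -0.70 to 0.31; limma adjusted p of 0.99997), and it was -0.09 without null library 6 and -0.07 without heterozygous library 10.

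Within each genotype the members also differed from library to library, often several of them in the same direction. Null library 6 held the lowest value of 9 of 10 members, and heterozygous library 10 held the highest value of 7 of 10. All 10 members were below their own median in null libraries 6 and 8, and 9 of 10 were below it in heterozygous library 5. Null library 9 went the other way, with 2 of 10 below their median.

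**Figure D3:**
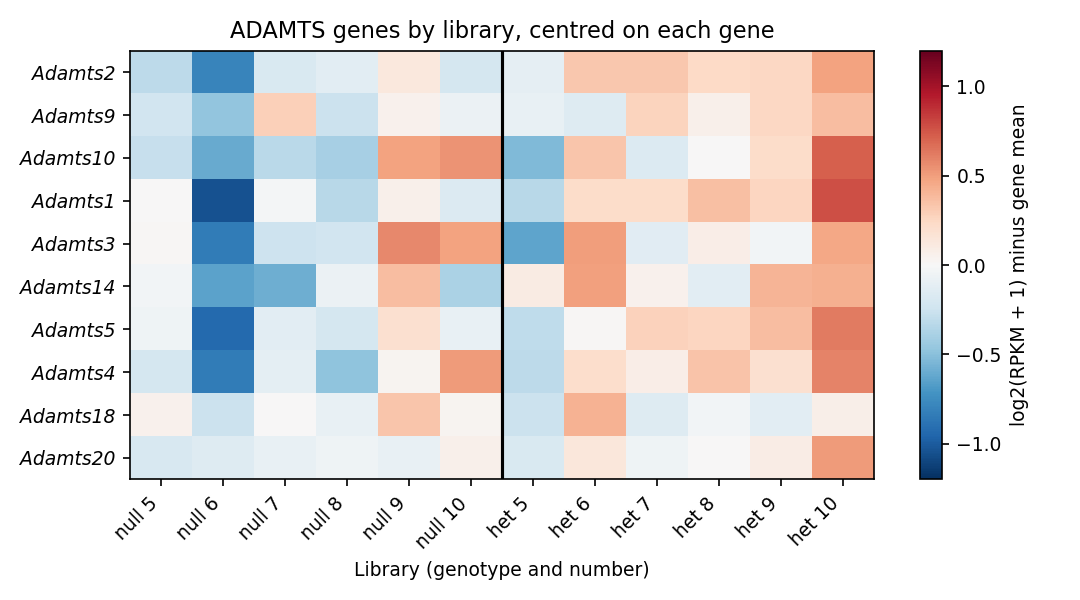
Each member's log2(RPKM + 1) in each library after subtracting the gene's mean over the 12 libraries, with Nfic-/- libraries left of the black line and Nfic+/- libraries right of it. Null library 6 is blue for all 10 genes and heterozygous library 10 is red for all 10.

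Markers of dental mesenchyme and follicle moved with the family. Their 9 genes, Msx1, Pax9, Barx1, Lhx6, Postn, Fmod, Tnmd, Twist1 and Prrx1, summed to 51.9 to 307 RPKM in null libraries and to 124 to 344 RPKM in heterozygous libraries, and all 9 had a difference below 0. The lowest sum was again in null library 6 and the highest in heterozygous library 10. Endothelial markers summed to 10.4 to 36.7 RPKM in null and 22.6 to 43.3 RPKM in heterozygous libraries, with 6 of 6 below 0. Without null library 6 the median difference was -0.37, against -0.61 with it, for the mesenchyme list and -0.27, against -0.43, for the endothelial list. Dental epithelium markers went the opposite way, with 10 of 10 above 0 and a summed level of 54864 to 141960 RPKM in null and 38023 to 143300 RPKM in heterozygous libraries. Without null library 6, 1 of these 10 lay below 0, with a median of 0.26 against 0.28. Without both libraries numbered 6, 3 of 10 lay below 0, with a median of 0.40. With the mean level of the 9 mesenchyme markers as a covariate, a fit chosen after the data were seen, the median difference of the 8 tested members was -0.06 and 5 of 8 lay below 0. That fit moved the median of all tested genes to 0.14, and relative to it the members' median was -0.20 and 6 of 8 lay below. The smallest p of the family there belonged to Adamts3, on the higher side at 0.44 (limma adjusted p = 0.297). Adamts10 was at 0.30 (limma adjusted p = 0.303) and Adamts4 at 0.10 (adjusted p = 0.464). Adamts2 was at -0.25 (limma adjusted p = 0.297) and Adamts14 at -0.32 (adjusted p = 0.339). Macrophage markers summed to 27.1 to 80.7 RPKM in null and 36.4 to 101 RPKM in heterozygous libraries, with 5 of 5 below 0. Without null library 6 this was 4 of 5, with a median of -0.07 against -0.19, and with the mesenchyme covariate 0 of 5. Pericyte and smooth muscle markers summed to 13.8 to 44.7 RPKM in null and 26.4 to 54.9 RPKM in heterozygous libraries, with 2 of 3 tested below 0. Odontoblast markers, which include Col1a1, summed to 1917 to 4068 RPKM in null and 3205 to 4745 RPKM in heterozygous libraries. They had 5 of 6 below 0, a median of -0.49 and the lowest sum in null library 6. With the mesenchyme covariate 5 of 6 again lay below 0, with a median of -0.45. Osteoclast markers summed to 15.6 to 114 RPKM in null and 53.9 to 102 RPKM in heterozygous libraries, with 3 of 3 tested below 0, and null library 6 was again the lowest. Without null library 6 the count below 0 was 2 of 3, with a median of -0.07 against -0.42. Without both libraries numbered 6 it was 1 of 3, with a median of 0.02. With the mesenchyme covariate endothelial markers had 5 of 6 below 0 (median -0.03), pericyte markers 1 of 3 tested and osteoclast markers 0 of 3. The mesenchyme markers themselves had a median difference of -0.61 between the genotypes, so this covariate cannot separate mesenchyme content from genotype. The part of mesenchyme, endothelial, pericyte, macrophage, odontoblast and osteoclast content in the members' levels was not tested.

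**Figure D4:**
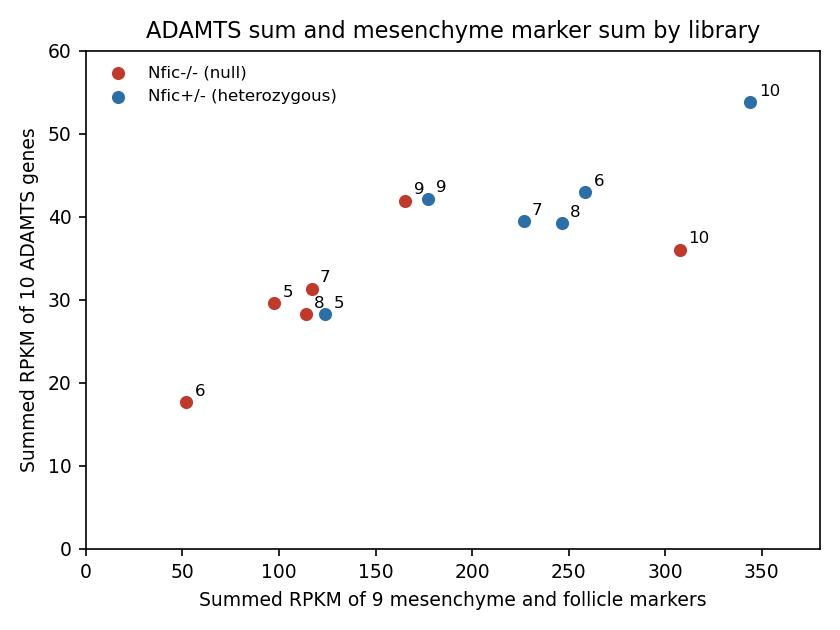
Summed RPKM of the 10 ADAMTS genes against summed RPKM of 9 mesenchyme and follicle markers, 1 point per library with its number. Null library 6 is lowest on both axes (17.6 and 51.9 RPKM) and heterozygous library 10 highest on both (53.8 and 344 RPKM), while null library 10 has a high marker sum (307 RPKM) with a middling ADAMTS sum (36.1 RPKM).

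Of the 9 other ADAMTS genes, 2 were tested and lay 1 on each side of 0. Tested or not, 7 of 9 lay below 0, against 9 of 10 members and 51.1% of tested genes. The share over untested genes was not counted. Some of these differences were close to 0, as for Adamts13 (-0.0041, on about 0.9 to 7 reads per library) and Adamts16 (-0.03, on 5 to 35 reads). Adding 1 RPKM keeps differences near 0 at such levels. Adamts16 had a mean of 0.0247 RPKM in null and 0.0464 RPKM in heterozygous libraries. Of the 9, 7 had a mean below 1 RPKM, and 3 of these, Adamts8, Adamts13 and Adamts16, were below 0.1 RPKM. Adamts6, Adamts7, Adamts15 and Adamts19 lay between, at 0.814, 0.942, 0.160 and 0.729 RPKM, with differences of -0.28, -0.26, -0.06 and -0.43. In the fit over 16051 genes Adamts19 had a limma adjusted p of 0.977. Adamts17, a relative of Adamts10, had the highest mean of the ADAMTS genes, at 14.5 RPKM. It lay at 8.12, 15.0 and 21.5 RPKM in null libraries, against 9.003, 13.2 and 21.7 RPKM in heterozygous libraries. Its difference was 0.10 (limma adjusted p of 0.99997), on the other side of 0 from the 8 tested members, and it lay between -0.03 and 0.46 over the alternative fits. Adamts12 was at 0.804 ± 0.450 RPKM in null and 1.44 ± 0.464 RPKM in heterozygous libraries (SD, n = 6 each), a difference of -0.45 (limma adjusted p = 0.934). Of the ADAMTS-like genes, which resemble the family but lack the protease domain, Papln (papilin) was very high, at 160 ± 32.2 RPKM in null and 148 ± 40.5 RPKM in heterozygous libraries. The 3 tested ADAMTS-like genes had 2 differences above 0 and 1 below.

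Genes for the substrates of the procollagen enzymes lay on the same side of 0. All 9 fibrillar procollagen genes were tested, 9 of 9 lay below 0 and 0 of 9 passed, with a median of -0.48, beside -0.0028 over all tested genes. Without null library 6, 8 of 9 lay below 0 and the median was -0.30. Col1a2 had 559 ± 138 RPKM in null and 713 ± 81.8 RPKM in heterozygous libraries (SD, n = 6 each), and Col5a3 had 0.925 ± 0.525 and 1.67 ± 0.685 RPKM. Per 100 RPKM of Col1a1, Adamts2 was at 0.432 to 0.680 RPKM in null and 0.431 to 0.789 RPKM in heterozygous libraries, so enzyme and substrate transcripts kept overlapping ratios. In carboxy-end processing of procollagen, the enhancer gene Pcolce had 44.1 ± 11.8 RPKM in null and 62.6 ± 10.3 RPKM in heterozygous libraries, and the protease gene Bmp1 had 27.99 ± 5.87 and 31.3 ± 4.58 RPKM. That list of 4 tested genes had 3 below 0 and a median of -0.11. Microfibril and fibronectin genes had 7 of 7 below 0 and a median of -0.38. Without both libraries numbered 6, 5 of 7 lay below 0, and with the mesenchyme covariate 1 of 7 did. With that covariate 6 of 9 fibrillar procollagen genes lay below 0, with a median of -0.08. In the microfibril list Fbn2 was at 9.09 ± 7.07 RPKM in null and 18.5 ± 14.4 RPKM in heterozygous libraries.

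Of the proteoglycan list, which also holds the cartilage protein gene Comp, 6 genes were tested and 5 lay below 0, with a median of -0.37, and with the mesenchyme covariate 3 of 6 lay below 0. Bgn, a small leucine-rich proteoglycan gene, had 85.1 ± 21.6 RPKM in null and 128 ± 22.1 RPKM in heterozygous libraries (SD, n = 6 each), and Dcn had 165 ± 67.1 and 214 ± 41.7 RPKM. Vcan, the gene of the versican substrate, had 12.1 ± 8.46 and 22.0 ± 16.7 RPKM (limma adjusted p = 0.980). Acan, the aggrecan gene, was nearly silent at 0.145 ± 0.156 and 0.252 ± 0.168 RPKM, and of the other 5 cartilage markers Col2a1 had a mean of 1.81 RPKM and Col9a1 0.884 RPKM, while Matn1, Matn3 and Comp were below 0.1 RPKM. The 5 tested genes of hyaluronan synthesis and binding had 3 below 0 and a median of -0.41, with Tnfaip6 at 1.17 ± 0.401 and 1.91 ± 0.681 RPKM and Hapln3 at 1.67 ± 1.35 and 3.21 ± 1.55 RPKM. Inhibitor and clearance genes had 4 of 4 below 0 and a median of -0.26. Without null library 6 these were 3 of 4 and -0.17, and with the mesenchyme covariate 1 of 4 lay below 0. Timp1 was at 10.8 ± 2.03 and 12.6 ± 1.96 RPKM and Timp2 at 45.3 ± 15.1 and 57.5 ± 15.2 RPKM. Timp3 was closest to 0 of the 4, at 7.87 ± 2.50 and 8.09 ± 1.93 RPKM, a difference of -0.06 (limma adjusted p of 0.99997). Of the 5 genes that mature or modify the enzymes, 3 lay below 0, with a median of -0.08, and the convertase gene Pcsk5 had 4.37 ± 1.63 RPKM in null and 6.30 ± 0.796 RPKM in heterozygous libraries. Its relative Pcsk6 had 2.51 ± 0.789 and 3.07 ± 0.523 RPKM. Of the VEGF-C genes, the 1 tested, Vegfc itself, had 1.27 ± 0.697 and 1.73 ± 0.561 RPKM. None of these genes passed an adjusted p of 0.05 over all genes by limma.

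**Figure D5:**
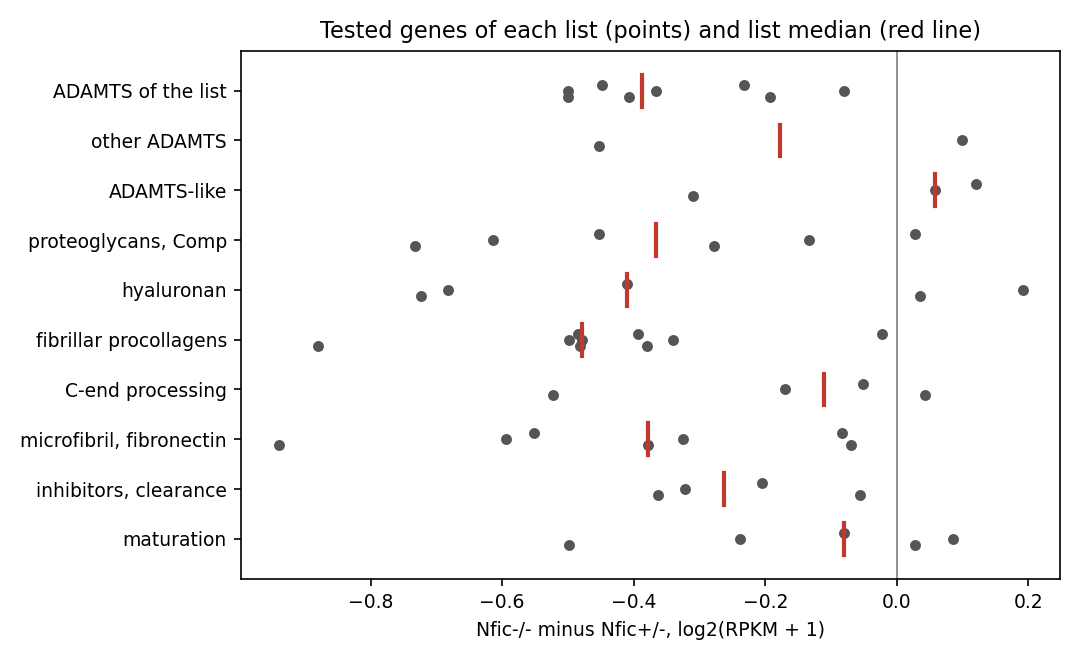
Difference between genotypes (Nfic-/- minus Nfic+/-, in log2(RPKM + 1)) of every tested gene in the ADAMTS lists and the lists of substrates and partners, with 1 point per gene and a red line at the list median. The fibrillar procollagen points all lie below 0 with a median of -0.48, and the ADAMTS-like list has its median above 0.

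Adamts2 was both the most abundant member and the one with the smallest p, so the genes most like it were looked up. Centred on their means, the tested genes closest to Adamts2 over the 12 libraries were Zbtb7c, Slc12a7, Cxxc5 and Myo1e, with mean absolute differences of 0.0844, 0.101, 0.101 and 0.104 log2. The median tested gene differed from Adamts2 by 0.272. Zbtb7c had 1.37 ± 0.427 RPKM in null and 2.02 ± 0.333 RPKM in heterozygous libraries (SD, n = 6 each), and Cxxc5 had 5.84 ± 1.81 and 8.07 ± 1.36 RPKM. The closest member was Adamts5, at 0.131.

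Promoters were read because Nfic encodes a DNA-binding factor, whose family recognises the letters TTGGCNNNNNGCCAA or the single site TTGGC. RefSeq promoters (GRCm38.p6, 250 bases before to 50 after the gene start) matched 7 of 10 members, namely Adamts1, Adamts2, Adamts3, Adamts9, Adamts14, Adamts18 and Adamts20. The start is the one RefSeq gives, and for Adamts20 this window (94404301 to 94404600 on chromosome 15) lies inside the gene span printed above. The full motif was in 0 of 7, beside 0.0365% of 32851 promoters. The single site, searched on both strands and counted wherever it overlapped a full site too, was in 2 of 7, Adamts2 and Adamts18, beside 46.7% of all promoters. The related letters TGGCA, also searched on both strands, were in Adamts9 and Adamts14, beside 48.85% of all promoters. The stretch before the start of Adamts2 is shown because Adamts2 had the smallest p, from chr11:50601835-50602084 on the plus strand, with the single site (read here from the other strand) in capitals.
Adamts2 promoter: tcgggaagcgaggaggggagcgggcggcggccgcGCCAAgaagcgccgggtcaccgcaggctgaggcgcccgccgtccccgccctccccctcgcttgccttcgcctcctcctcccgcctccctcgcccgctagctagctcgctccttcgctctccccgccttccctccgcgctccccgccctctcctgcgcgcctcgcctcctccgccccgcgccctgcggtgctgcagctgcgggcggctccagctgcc
A match of letters is a description of this window, and binding was not measured.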

How the data were processed

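RNA-seq of the 12 molar libraries was analysed from the table of log2 RPKM values that the authors deposited. The submitters' processing notes name TopHat2 and the mm10 build; the sources used here give no versions, counting tool or annotation. The design assumed linear RPKM, and the test was kept after the conversion below. Base 2 was settled from the values, since 7081 low values in genes with libraries at the floor of 0.9 reads were 100% whole reads within 0.02 with base 2 and 0% with base e. Identifiers were matched to GENCODE M21 for 24987 of 25899 genes, and depth was read from floor values over exonic length.

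Values were turned back to RPKM and tested as log2(RPKM + 1) in limma 3.58.1 (R 4.3.3) with a variance trend and genotype as the only term, over genes whose mean reached 1 RPKM, with Benjamini-Hochberg adjustment at 0.05. The procedure was tested on simulated data. All 10 members and Nfic are named; of other lists, mainly the 2 genes with the smallest p. Genes outside that rule (Vcan, Acan, Col1a1, Timp3 and the other ADAMTS genes) are given as substrates or for completeness. Likeness was the mean absolute difference of centred values. The members and lists were chosen with earlier results of these data known. Tables and figures were made with pandas 2.3.3, numpy 2.4.6 and matplotlib 3.10.9 under Python 3.11.15. B3glct, Adgre1, Hbb-bs, Hbb-bt and Si were not found by symbol and are not analysed here. One result on exonic overlap is not reported here.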

Additional observations from a re-analysis of the deposited data

Results flagged for a closer look

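In groups of 6 libraries, a single value can stand far from the rest, and this was looked for in 22 groups (10 members and Nfic in each genotype), where chance alone flags about 1 in 20. Null library 6 was set apart in 2 genes. For Adamts1 it had 1.013 RPKM, against 2.30 to 3.32 RPKM in the other null libraries. On the log2(RPKM + 1) scale this was a gap of 0.649 of the group's whole range, above Dixon's 95% critical value. For Adamts5 it had 0.423 RPKM, against 1.35 to 2.10 RPKM in the other null libraries, a gap of 0.642 of the range on the same scale. Mesenchyme markers were also lowest in this library, at 51.9 RPKM summed, against 97.6 to 307 RPKM in the other null libraries, and their part in these low values was not tested.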

How the results depend on the processing

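Under each of 28 alternative fits, 0 genes and 0 members passed an adjusted p of 0.05, while the genes with an unadjusted p under 0.05 numbered 271 to 2020 and the members 1 to 6. The median difference of the 8 tested members lay between -0.57 (pseudocount of 0.1) and -0.06 (mesenchyme covariate), and between -0.47 and -0.25 with any 1 library left out. With the replicate number as a block it was again -0.39, the smallest adjusted p was 0.0872, and 6 members had an unadjusted p under 0.05; same-numbered libraries deviated together at r of 0.31 to 0.80 in 5 of 6 numbers but at 0.00502 for number 6, and were mutually closest across genotypes in 3 of 6. The series text counts littermate pairs, and these values leave pairing by number possible; it was not used in the main comparison because no label states it and 1 of the 6 correlations was not over 0.1. Direction turned for Adamts3 (0.11 in libraries 8 to 10, 0.17 without both libraries numbered 6, 0.44 and 0.27 with the mesenchyme and epithelium covariates, -0.22 to 0.0790 with 1 library left out), for Adamts18 (-0.07 in libraries 5 to 7, -0.06 without libraries 8 and 9, -0.04 to 0.11 with 1 library left out), for Adamts4 (0.10 with the mesenchyme covariate), for Adamts10 (0.30 and 0.17 with these covariates), for Adamts17 (-0.0276 in libraries 5 to 7, -0.0266 without libraries 8 and 9, -0.0114 to 0.25 with 1 library left out, among them -0.0055 without heterozygous library 5), and for Papln (-0.0637 in libraries 8 to 10, -0.0188 without both libraries numbered 6, -0.21 and -0.12 with the covariates). Bmp1, Fbn2, Vegfc, Timp2 and Pcsk6 turned to 0.0925, 0.20, 0.16, 0.21 and 0.0199 with the mesenchyme covariate. The covariates and the fit without libraries 8 and 9 were chosen after the data were seen, and the cause of these turns was not tested. Adamts18 and Adamts20 had the lowest levels of the members, on about 99 to 689 and 49 to 627 reads per library, and the part of depth was not tested. With a pseudocount of 0.1 their differences were 0.10 and -0.59, against 0.03 and -0.17 in log2(RPKM + 1).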
